A study of Saccharomyces cerevisiae with 4 samples.

Results

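The genes described here are 10 antioxidant genes of the budding yeast Saccharomyces cerevisiae, namely the superoxide dismutase genes SOD1 and SOD2, the catalase genes CTT1 and CTA1, the peroxiredoxin genes TSA1, TSA2 and AHP1, the thioredoxin genes TRX1 and TRX2, and the thioredoxin reductase gene TRR1. They were taken by gene symbol from the array annotation, which gave 2 spots for each, or 20 of 12800 spots and 10 of 5539 named genes. All 10 had a value on each of the 4 arrays, so none was lost to the filter that left 5489 genes for testing. Both conditions used BY4741, a laboratory haploid of mating type a from which HIS3, LEU2, MET17 and URA3 have been deleted. Cells given 30 µg/ml Congo red for 2 h were compared with cells of the same divided culture left without the dye for the same time, all in rich medium at 24 °C. Congo red is a dye that binds polysaccharides of the cell wall and disturbs its assembly. Treated and untreated RNA were hybridised together on each 2-colour array, and the channels were exchanged between arrays. Channel 2 held the treated RNA on arrays 1 and 3, and channel 1 held it on arrays 2 and 4.

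Yeast removes reactive oxygen in steps. Superoxide dismutases turn superoxide into hydrogen peroxide, and catalases and peroxiredoxins turn hydrogen peroxide into water. Peroxiredoxins are reduced again by thioredoxins, thioredoxins by thioredoxin reductase, and the reductase draws on NADPH. In yeast, the transcription factors Yap1 and Skn7 are known to raise TRX2, TRR1, TSA1 and AHP1 under peroxide, and Msn2 and Msn4 are known to raise CTT1 under general stress.

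Each spot has a deposited log2 ratio, and below each array's median was set to 0. A value is therefore a ratio between treated and untreated RNA, and it says nothing of how abundant a transcript was. Arrays held values for 11609 to 12586 spots. The ratios are read as Congo red over untreated, a direction that is likely but not settled, because the labels name neither dye nor ratio. The reading rests on 8 known genes of cell wall stress, which were chosen with earlier results of these data known and so are not independent of them. Of these 8 genes, 7 were above 0 on all 4 arrays, between 0.46 and 3.35, and SLT2 was above 0 on both arrays that measured it. Over all genes, however, the correlation between arrays of opposite channel assignment was near 0 (mean Pearson's r = -0.04, mean Spearman's rho = -0.09), while that between arrays of the same assignment was higher (mean r = 0.19, mean rho = 0.40). These are descriptions across genes, which are not independent replicates. Values with the sign of arrays 2 and 4 turned are therefore given as well. Whether the 4 arrays stand for separate cultures is not stated in the labels, so each p-value reflects the spread between arrays alone, and that spread may be technical.

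No antioxidant gene changed with Congo red in the limma test over all genes. In the mean 7 of the 10 genes lay below 0 and 3 above, where 52% of all genes tested lay below 0. Their median was -0.25, against -0.01 for all genes tested. The count past a limma adjusted p of 0.05 was 0 of 10 in either direction, and the background was 0.0911% of genes higher and 0% lower. At an unadjusted p under 0.05 the count was also 0 of 10, against 5.37% of genes higher and 2.37% lower. None of the 10 was above 0 on all 4 arrays (background 9.54%) and none was below 0 on all 4 (background 8.65%). With 4 arrays the limma 95% intervals were wide, so these counts do not show that the levels were equal.

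SOD1 (YJR104C) encodes the copper-zinc superoxide dismutase, which works mainly in the cytosol. Its log2 ratios were -1.44, -0.11, -1.35 and 0.12 on arrays 1 to 4. It was far below 0 on arrays 1 and 3 and near 0 on arrays 2 and 4. The mean was -0.70 ± 0.34 (SE, n = 4), a ratio of 0.617, with a limma 95% interval of -1.57 to 0.18 (limma adjusted p = 0.69). This was the lowest mean of the 10, at percentile 2.71 of all genes tested, and it ran from -0.97 to -0.45 when 1 array was left out. SOD2 (YHR008C), the manganese enzyme of the mitochondrial matrix, had ratios of -0.61, 0.02, -0.62 and 0.16. It had the same low pair of arrays as SOD1 at a smaller size. Its mean was -0.26 ± 0.20 (SE, n = 4, limma adjusted p = 0.75), and it ran from -0.40 to -0.14 when 1 array was left out. The 2 spots of SOD2 lay 0.61 apart on array 1, while those of SOD1 differed by at most 0.14 on any array.

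CTT1 (YGR088W), the cytosolic catalase, had log2 ratios of 0.15, -0.51, 0.52 and -0.92 on arrays 1 to 4. Here arrays 1 and 3 were the high ones, opposite to the dismutases. The mean was -0.19 ± 0.28 (SE, n = 4, limma adjusted p = 0.86). Its spots agreed poorly, with gaps between the 2 spots of 0.78, 0.90 and 0.98 on arrays 2, 3 and 4, and only 1 spot measured on array 1. CTA1 (YDR256C), the catalase of peroxisomes and mitochondria, had ratios of -0.35, -1.49, -0.55 and 0.12. Array 2 was the lowest, and the 2 spots of CTA1 lay 0.97 apart there. On array 4 they lay 0.74 apart, at 0.49 and -0.24. The mean was -0.57 ± 0.29 (SE, n = 4), with a limma 95% interval of -1.32 to 0.19 (limma adjusted p = 0.70). Without array 2 the mean of CTA1 was -0.26.

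TSA1 (YML028W) encodes the main cytosolic peroxiredoxin, which also acts as a chaperone. Its log2 ratios were -0.96, 0.22, -0.79 and 0.16 on arrays 1 to 4. AHP1 (YLR109W), a peroxiredoxin that favours alkyl hydroperoxides, had ratios of -1.10, 0.18, -0.93 and 0.17. Both genes were low on arrays 1 and 3 and a little above 0 on arrays 2 and 4. Their means were -0.34 ± 0.27 for TSA1 and -0.42 ± 0.30 for AHP1 (SE, n = 4 each, limma adjusted p = 0.75 and 0.74). When 1 array was left out they ran from -0.53 to -0.14 for TSA1 and from -0.62 to -0.19 for AHP1. The 2 spots of TSA1 differed by at most 0.09 on any array and those of AHP1 by at most 0.05, so the distance between the array pairs was many times the distance between spots. TSA2 (YDR453C), a close relative of TSA1 that is known as the inducible form, stood apart from both. Its ratios were 0.07, -0.20, 0.09 and 0.04, its mean was 0.00 ± 0.14 (SE, n = 4), and its limma 95% interval ran from -0.35 to 0.35. Spots of TSA1 and TSA2 may share signal because the genes are closely related, and how far they do was not tested.

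TRX1 (YLR043C) and TRX2 (YGR209C) encode the cytosolic thioredoxins. TRX1 had log2 ratios of -0.63, 0.94, -0.53 and 0.73 on arrays 1 to 4. TRX2 had ratios of -0.55, 0.50, -0.30 and 0.68. Each lay clearly below 0 on arrays 1 and 3 and clearly above 0 on arrays 2 and 4, so the mean of each fell near 0. The means were 0.13 ± 0.34 for TRX1 and 0.08 ± 0.26 for TRX2 (SE, n = 4 each, limma adjusted p = 0.93 and 0.94). The TRX2 spots differed by at most 0.07 and the TRX1 spots by at most 0.24. These genes too are close relatives whose spots may share signal. TRR1 (YDR353W), the reductase of these thioredoxins, had ratios of -0.44, -0.34, -0.28 and 0.12. It was below 0 on 3 arrays and did not follow the thioredoxins. Its mean was -0.23 ± 0.16 (SE, n = 4, limma adjusted p = 0.74).

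**Figure D1:**
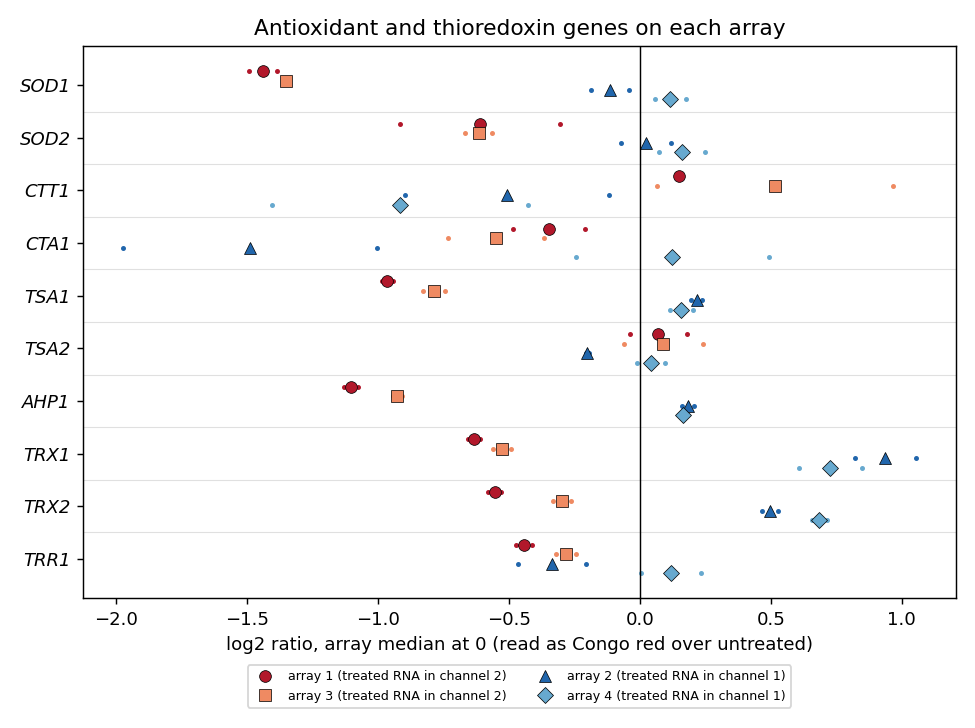
Log2 ratio of each of the 10 genes (vertical axis) on each array (horizontal axis, array median at 0). Large symbols are gene values and dots are the single spots. SOD1, SOD2, TSA1, AHP1, TRX1 and TRX2 have both red and orange symbols (arrays 1 and 3) left of both blue ones (arrays 2 and 4), and CTT1 has the opposite order.

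The values of most of these genes therefore separated by channel assignment. In 6 of the 10, namely SOD1, SOD2, TSA1, AHP1, TRX1 and TRX2, arrays 1 and 3 were both below arrays 2 and 4, where 29.5% of all genes were. In CTT1 and TSA2 arrays 1 and 3 were both above arrays 2 and 4, as in 28.2% of all genes. In 5 genes, SOD2, TSA1, AHP1, TRX1 and TRX2, the sign itself split, below 0 on arrays 1 and 3 and above 0 on arrays 2 and 4 (background 13.5%). A difference of at least 1 log2 unit in that direction was found in 5 genes, SOD1, TSA1, AHP1, TRX1 and TRX2, against 5.5% of all genes. The median difference, arrays 1 and 3 minus arrays 2 and 4, was -0.86 for the 10 genes and 0.04 for all genes tested.

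Among the 10 genes the difference was largest in size for TRX1, at -1.41 ± 0.21 (SE), with means of -0.58 on arrays 1 and 3 and 0.83 on arrays 2 and 4. SOD1 followed at -1.40 ± 0.22, from means of -1.40 on arrays 1 and 3 and 0.00 on arrays 2 and 4. AHP1 was at -1.19 ± 0.21, TSA1 at -1.06 ± 0.21, TRX2 at -1.02 ± 0.23 and SOD2 at -0.71 ± 0.20. CTT1 went the other way at 1.04 ± 0.28. TRR1, at -0.25 ± 0.26, TSA2, at 0.16 ± 0.22, and CTA1, at 0.23 ± 0.63, had intervals that included 0. The limma test of this difference called 0 of 10, and the background was 0% of genes. At an unadjusted p under 0.05 the count was 6 of 10 with arrays 1 and 3 lower, where 9% of all genes were, and 1 of 10 with arrays 1 and 3 higher, where 6.38% were. The smallest limma adjusted p of this difference, over all genes and for SOD1, TSA1, AHP1, TRX1 and TRX2, was 0.25.

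**Figure D2:**
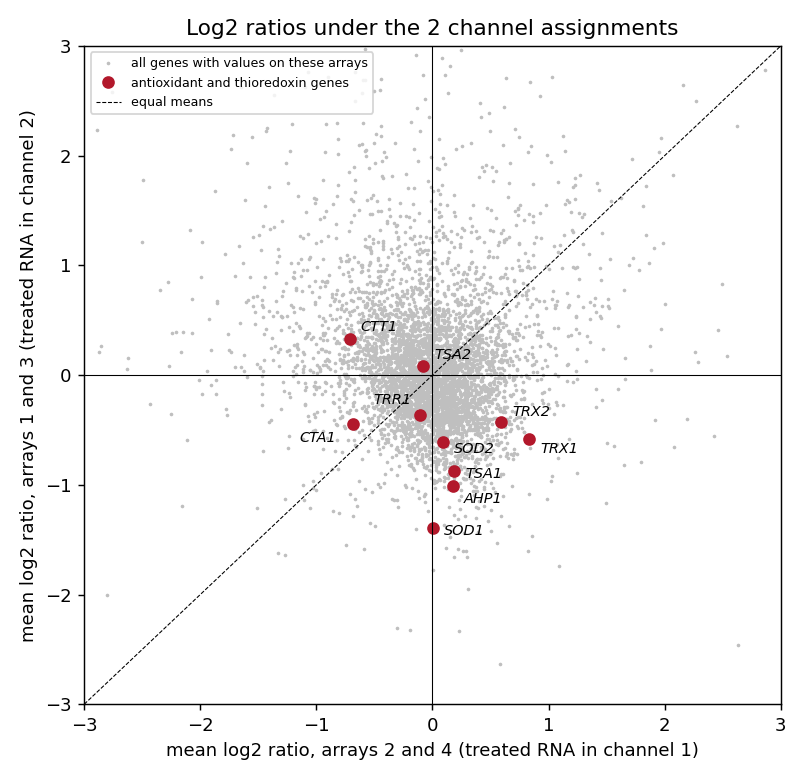
Mean log2 ratio on arrays 1 and 3 (vertical axis) against that on arrays 2 and 4 (horizontal axis) for 5087 genes (grey) and the 10 antioxidant genes (red). A further 37 genes lie beyond the axes, which end at 3. The dashed line marks equal means, and TRX1, TRX2, TSA1, AHP1, SOD1 and SOD2 lie well below it.

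When limma's model also held a term for the channel assignment, each mean stayed as it was by construction and the error shrank for the genes that had split. SOD1 was then at -0.70 ± 0.11 (SE, n = 4), with a 95% interval of -1.01 to -0.39. AHP1 was at -0.42 ± 0.10, with an interval of -0.72 to -0.12, and TSA1 at -0.34 ± 0.10, with an interval of -0.64 to -0.04. These were the 3 of 10 genes at an unadjusted p under 0.05 in this model, all lower, where 5.76% of all genes were. None of the 10 was higher, against 7.47% of all genes. None passed after adjustment over all genes (limma adjusted p = 0.26 for SOD1, 0.34 for AHP1 and 0.36 for TSA1). TRX1 and TRX2 were near 0 in this model, with intervals of -0.18 to 0.44 and -0.25 to 0.41.

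**Figure D3:**
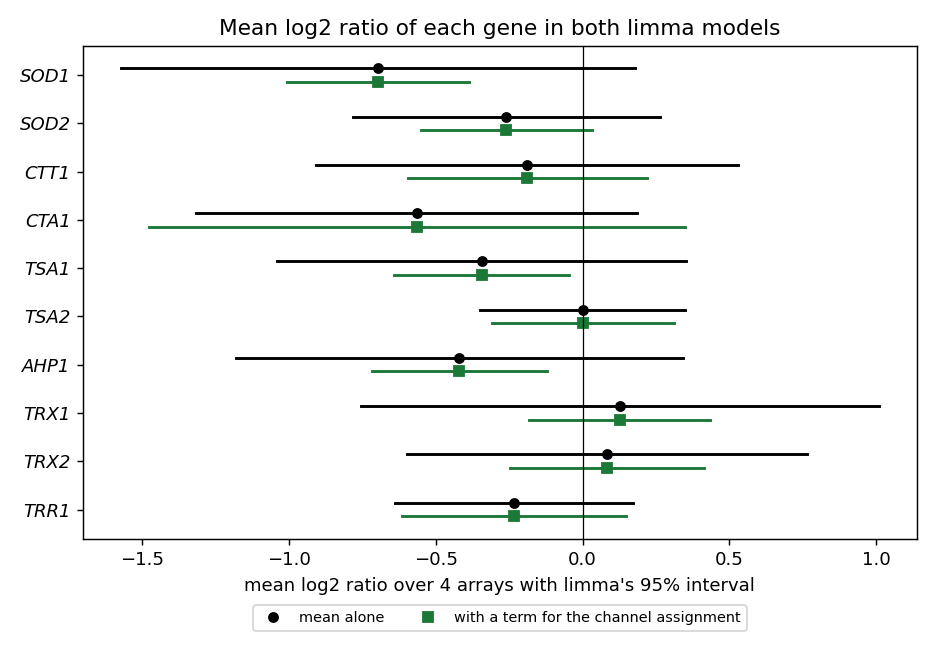
Mean log2 ratio of each gene over 4 arrays (points) with limma's 95% interval (lines). Black is the model of the mean alone, where all 10 intervals include 0. Green is the model with a term for the channel assignment, where the intervals of SOD1, TSA1 and AHP1 end below 0.

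Another possible reading of the ratios, as channel 2 over channel 1, changed the sign of both thioredoxin and both catalase means. For this the sign of arrays 2 and 4 was turned. Each turned mean restates the difference between the array pairs given above on a smaller scale, so it is not a separate result. TRX1 was then at -0.71 ± 0.13 (SE, n = 4) and TRX2 at -0.51 ± 0.13. Both lay below 0 on all 4 arrays, as must every gene whose sign had split that way (background 13.5%). AHP1 was at -0.60 ± 0.22 and TSA1 at -0.53 ± 0.20. These 4 of 10 genes had an unadjusted p under 0.05 below 0, where 5.94% of all genes did. CTT1, at 0.52 ± 0.17, was the 1 gene of the 10 above 0 at that level, against 6.29% of all genes. None passed after adjustment (smallest limma adjusted p = 0.38, for TRX1 and TRX2). SOD1 had nearly the same mean, -0.70, in this reading and in the main one, since arrays 2 and 4 lay close to 0. If the ratios ran channel 1 over channel 2 instead, every turned mean would have the opposite sign, that of SOD1 included. Under either reading by channel, though, the genes of cell wall stress that were above 0 on every array would point in opposite directions on the array pairs. For the antioxidant genes alone, an effect of the channel and an effect of the treatment under turned ratios cannot be told apart.

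Genes of like activity were compared within each array, as the difference between their log2 ratios. TRX2 minus TRX1 was 0.08, -0.44, 0.23 and -0.04 on arrays 1 to 4, a mean of -0.04 ± 0.29 (SD, n = 4). The thioredoxin pair thus had like ratios on arrays 1 and 4 and lay furthest apart on array 2. SOD2 minus SOD1 was 0.83, 0.14, 0.74 and 0.04, above 0 on all 4 arrays, with a mean of 0.44 ± 0.40 (SD, n = 4). On arrays 2 and 4 that difference was smaller than the gaps between the 2 SOD2 spots, 0.19 and 0.18. TSA2 minus TSA1 was 1.03, -0.42, 0.88 and -0.12, a mean of 0.34 ± 0.72 (SD, n = 4) that ran from 0.11 to 0.60 when 1 array was left out. On arrays 1 and 3 the ratio of TSA2 was thus well above that of TSA1, and on arrays 2 and 4 it was below. CTT1 minus CTA1 was 0.50, 0.98, 1.07 and -1.04, a mean of 0.38 ± 0.98 (SD, n = 4), with array 4 opposite to the others. Without array 4 that mean was 0.85, and the lowest value with 1 array left out was 0.15. The value of array 4 is itself uncertain, as the 2 spots lay 0.98 apart there for CTT1 and 0.74 apart for CTA1. In a two-sided exact sign-flip permutation test over the arrays, p was 0.13 for the dismutases, the smallest that 4 arrays allow, 0.5 for the catalases and for TSA2 minus TSA1, and 0.875 for the thioredoxins. Adjusted over the 4 pairs these became 0.5, 0.67, 0.67 and 0.875, and the design could not reach 0.05.

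**Figure D4:**
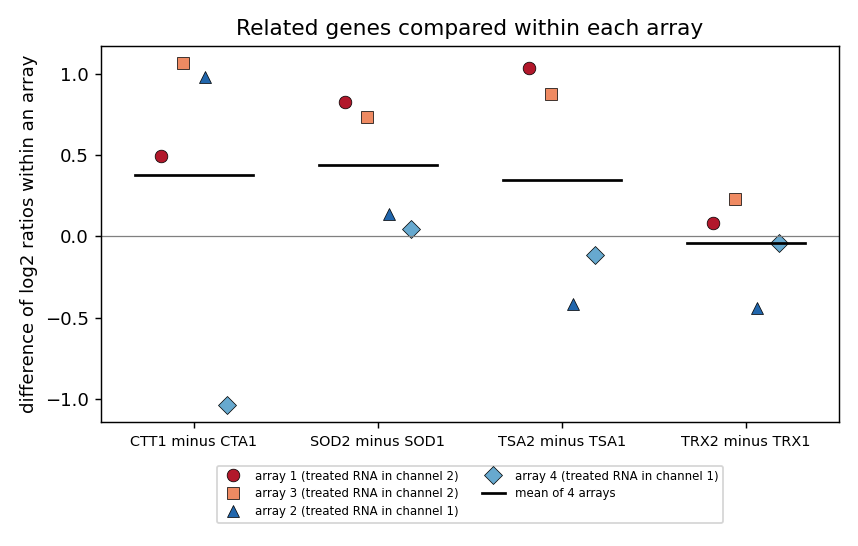
Difference between the log2 ratios of related genes within each array (vertical axis), for 4 pairs (horizontal axis). Symbols are arrays and black lines are means of 4 arrays. SOD2 minus SOD1 is above 0 on every array, though only slightly on arrays 2 and 4. TSA2 minus TSA1 is near 1 on arrays 1 and 3 and below 0 on arrays 2 and 4.

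The wider antioxidant system was set out in 56 further genes in 7 lists, all of which were tested. None passed over all genes, 26 had a mean above 0 and 30 below, and their median was -0.01. At an unadjusted p under 0.05 there were 2 higher and 3 lower of the 56, where 5.37% of all genes tested were higher and 2.37% lower. YHB1, a flavohaemoglobin that removes nitric oxide, was below 0 on all 4 arrays at -0.62, -0.98, -0.53 and -0.84, with a mean of -0.74 ± 0.15 (SE, n = 4, limma adjusted p = 0.33). OPT1, a transporter that takes up glutathione, was at -0.49 ± 0.15, and GND2, which makes NADPH in the pentose phosphate pathway, was at -0.50 ± 0.14 (limma adjusted p = 0.59 and 0.56). Both were below 0 on all 4 arrays, but they were named for a low unadjusted p, which favours genes with the same sign on every array. ALD6, an aldehyde dehydrogenase that supplies NADPH, was at 0.48 ± 0.18 (SE, n = 4, limma adjusted p = 0.64). GTT1, a glutathione transferase, was measured on 3 arrays at 2.21, 0.14 and 1.95, for arrays 1, 3 and 4, so its mean of 1.43 rests on 2 of them.

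By list, medians stayed close to 0. The median was 0.12 for the 8 glutaredoxins (5 above 0 and 3 below), 0.09 for the 9 genes of glutathione synthesis, reduction and transfer (5 above, 4 below) and 0.08 for the 7 regulators (4 above, 3 below). It was 0.01 for the 10 genes of NADPH supply (5 above, 5 below) and -0.03 for the 11 other peroxidases, thioredoxins and repair enzymes (5 above, 6 below). The 7 further Yap1 targets had a median of -0.12 (2 above, 5 below). The 4 genes that deliver metals to the dismutases had a median of -0.18, with 0 above 0, where 52% of all genes tested lay below 0. Of these, ATX1 had a mean of -3.9e-05 and so lay at 0. MTM1 was at 0.29, -1.02, 0.15 and -0.08 on arrays 1 to 4. CCS1, the copper chaperone of SOD1, was at -0.41, -0.06, -0.17 and -0.10. ATX1, MTM1 and CCS1 were singled out after their values were seen.

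The separation by channel assignment was also read in each list, with no test between lists. Of the 8 glutaredoxins, small thiol enzymes reduced by glutathione, 7 had values on all arrays, and 4 of these had arrays 1 and 3 both below arrays 2 and 4, where 29.5% of all genes had. Array medians of the glutaredoxins were -0.33, 0.16, -0.08 and 0.29, the same order of array pairs as in the 10 genes, whose medians were -0.58, -0.04, -0.54 and 0.14. GRX5, the mitochondrial glutaredoxin, was an example at -0.56, 0.61, -0.38 and 0.63, singled out after its values were seen. The other peroxidases, thioredoxins and repair enzymes, which include the mitochondrial PRX1, TRX3 and TRR2, had array medians of 0.25, -0.12, -0.24 and 0.21. These medians did not separate by channel assignment. Of the 11 genes in that list, though, 4 had arrays 1 and 3 both below arrays 2 and 4, and 2 had them both above. The shares over all genes were 29.5% and 28.2%. The regulators had array medians of 0.63, 0.02, 0.28 and -0.25, and 2 of the 6 with values on all arrays had arrays 1 and 3 both above arrays 2 and 4, a share near the 28.2% of all genes. SKN7 was at 0.96, -0.74, 1.05 and -0.15, and YAP1 scattered between -1.94 and 0.93, both singled out after their values were seen. Over the 56 genes together, 53 had values on all arrays, of which 15 had arrays 1 and 3 both below and 12 both above arrays 2 and 4, shares no higher than the 29.5% and 28.2% of all genes.

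**Figure D5:**
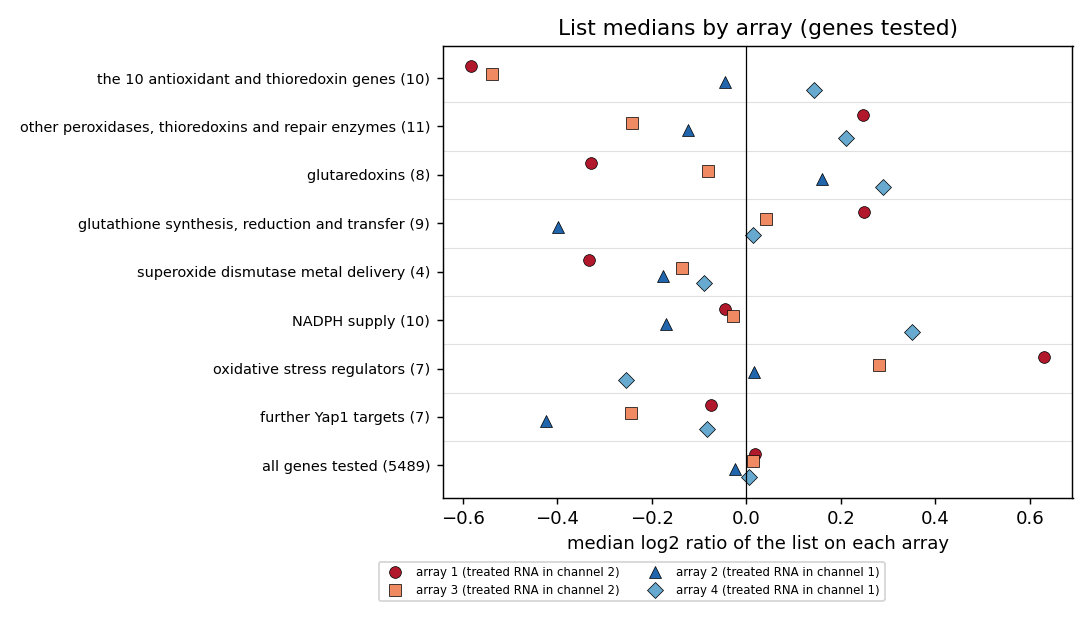
Median log2 ratio of each gene list on each array (horizontal axis), with the number of genes tested in brackets. Only the 10 antioxidant genes and the glutaredoxins have arrays 1 and 3 both left of arrays 2 and 4 by list median, and all genes tested have medians near 0 on each array.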

How the data were processed

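The deposited table holds 1 log2 ratio per spot for each of 4 arrays, which was read from the values (signed, with array medians from -0.46 to 0.37). What the authors did before deposit (dyes, background correction, normalization, ratio direction) is not given in the sources used here. Signal strengths were not used, so no spot was judged against background. Spots were named from the platform's old annotation: 11138 had 1 symbol, 0 had several, and 1662 had none and were left out. RefSeq's gene table (R64) held 11128 of them, and 0 symbols changed.

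Each array was centred on its median, spots of a gene were averaged, and a gene needed 3 or more arrays with a value to be tested against 0 with limma 3.58.1 in R 4.3.3 (lmFit, eBayes, two-sided, Benjamini-Hochberg over all genes, threshold 0.05). SE and intervals are limma's moderated ones. The fit was tested on simulated data. The genes, lists, design and alternatives were chosen with earlier results of these data known. All 10 genes are named. Of the 7 other lists, up to 4 genes each were named at an unadjusted p under 0.05, and further names are marked. The 8 direction markers were NCW2, PST1, CWP1, KDX1, PIR3, PRM5, CRH1 and SLT2. Having 4 arrays limits the precision. Alternatives changed the centring, scaling, filter on arrays, variance shrinkage, treatment of spots, channel term and ratio sign, or left out an array.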

Additional observations from a re-analysis of the deposited data

Results flagged for a closer look

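TSA2 stood apart on array 2, at -0.20, while its other 3 arrays lay between 0.04 and 0.09, so close together that the gap of array 2 filled most of the range. Of 14 sets of 4 array values examined in this way, this was the only one so marked, and chance marks about 1 in 20.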

How the results depend on the processing

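Under 15 alternatives none of the 10 genes passed over all genes. SOD1, SOD2, TSA1, AHP1 and TRR1 kept a mean below 0 in all of them. The channel term, the filters on arrays, the variance shrinkage and the removal of spots more than 1 apart left every mean unchanged. Those settings could not have changed a sign. The count at an unadjusted p under 0.05 went to 3 with a channel term, 5 with the sign of arrays 2 and 4 turned, and 0 to 1 when 1 array was left out. Turning the sign gave 0.52 for CTT1, 0.12 for CTA1, -0.71 for TRX1, -0.51 for TRX2 and 0.20 for TRX2 minus TRX1. These values follow by construction from the differences between the array pairs, and the cause of those differences was not tested. Centring within runs of 400 spot numbers gave -0.10 for TSA2. Leaving out 1 array gave -0.42 to 0.053 for CTT1, -0.028 to 0.068 for TSA2, -0.14 to 0.38 for TRX1, -0.12 to 0.30 for TRX2 and -0.13 to 0.089 for TRX2 minus TRX1. Over all genes 5 passed. That count was 11 without spots more than 1 apart and 0 with scaling, quantile normalization, the channel term, centring by spot run, the turned sign or any array left out. Depth in the sense of signal over background could not be judged.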
